A study of Mus musculus with 30 samples.

Results

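The 10 genes Lsp1, Mcam, Lrrc15, Ntrk3, Nes, Ctsw, Cd53, Creb5, Glipr1 and Hmgcll1 were chosen by name, as genes that were higher after knockdown of Kdm5c in 3T3-L1 cells, in most cases by a ratio that grew between 24 and 72 h. They are 10 of the 55573 genes in the deposited table of CPM, a gene's reads scaled to the library total, and all 10 were among the 12016 genes of the deposited count table, on which the tests were run. Because the effect of the Kdm5c siRNA chose them, their values in that comparison are given as a description with standard errors and no test, and no cut-off on that effect was part of the choice. Tests on the 10 genes themselves are limited to their course over time in scramble cells, which share those libraries with the siRNA comparison.

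3T3-L1 is a mouse embryo fibroblast line kept as preadipocytes, which can be induced to become adipocytes, and Kdm5c encodes an X-linked demethylase of histone H3 lysine 4. Sub-confluent cells were reverse-transfected, with Lipofectamine RNAiMAX, on day −3 of the differentiation schedule. Strand-specific mRNA libraries were made from cells collected 24, 48 and 72 h later, on days −2, −1 and 0. On each day 5 libraries came from cells given 50 nM of Kdm5c siRNA and 5 from cells given 50 nM of a non-targeting control, called scramble here; both were ON-TARGET reagents from Dharmacon, and all 30 libraries are from this 1 cell line. The labels name no untransfected group, and nothing in them states that the 5 replicates of a group were grown apart. The p-values below therefore reflect only the variation among these libraries, part or all of which may be technical.

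Library totals ran from 25217905 to 33725717 reads, so that 3 reads, the limit a count of 0 allows, correspond to 0.0890 to 0.119 CPM by library; this covers counting error only. Kdm5c itself lay between 23.3 and 26.7 CPM in the 5 Kdm5c siRNA libraries of day −2 and between 155 and 159 CPM in the 5 scramble libraries. It was 29.9 to 39.3 CPM against 187 to 194 CPM in scramble libraries on day −1, and 49.2 to 55.1 CPM against 204 to 217 CPM on day 0. Expressed as log2 fold changes, the differences were −2.62 ± 0.04, −2.41 ± 0.04 and −1.99 ± 0.04 on the 3 days (edgeR quasi-likelihood test, adjusted p = 1.24e-31, 3.5e-31 and 4.57e-29), so the residual level was lowest at 24 h and every knockdown library matched its label. Of 12 preadipocyte and fibroblast markers, 10 were in the count table. The sum over the 12 was at least 23289 CPM in every library, most of it from Col1a1 and Col1a2, while Cd34 reached at most 1.07 CPM. The muscle factor Myod1 and the glial factor Sox10 were at 0 in all 30, but other genes of those marker lists were expressed. The muscle gene Acta1 averaged 32.6 CPM in Kdm5c siRNA and 32.2 CPM in scramble cells on day −2, and 0.873 and 0.642 CPM on day 0. The muscle gene Des reached 6.1 CPM, and the neural gene Map2 averaged 14.2 to 27.4 CPM by group.

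The 10 genes belong to several protein classes, and 4 of them, Ntrk3, Mcam, Lrrc15 and Cd53, encode well-known cell-surface proteins. Surface receptors and adhesion proteins pass signals from soluble ligands or neighbouring cells inward, and fibroblasts change this repertoire as they become confluent and commit to a lineage. Intermediate filaments and actin-binding proteins set cell shape, which preadipocytes remodel before they store fat. Transcription factors of the CREB family bind the cAMP response element, and cAMP is among the signals used to start adipocyte conversion.

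Promoter sequence was looked up for the 10 genes in a RefSeq table (GRCm38.p6) of windows reaching from 250 bases before to 50 bases after each annotated start. Windows were found for 6 members, Mcam, Lrrc15, Cd53, Nes, Creb5 and Hmgcll1, with 2 alternative starts for Creb5. The 8-base cAMP response element TGACGTCA, which is its own reverse complement, was present in 2 of these 6 members and in 1.79% of all 32851 windows. The stretches of 30 bases that hold it are shown because one of them lies in the promoter of Creb5, whose protein family binds this element. Both are on the plus strand and the element is in capitals. The Mcam stretch is chr9:44134618-44134647 and the first Creb5 stretch is chr6:53287247-53287276.
Mcam: ccccgccccccTGACGTCAgcccccgacag
Creb5, first start: ggaatcccacgTGACGTCAccgggggggtg
Counted with the first transcribed base as 0, the element lay at −29 to −22 in Mcam and at −45 to −38 in Creb5, where its first 2 bases were also the last 2 of an E-box, CACGTG. The RefSeq start of Mcam lies 189 bases inside the gene as GENCODE M21 draws it, and that of Creb5 lies 33 bases inside.

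The AP-1 motif TGANTCA, searched on both strands, was in the windows of 3 members and in 7.81% of all windows. The 3 stretches are shown because these members lie on different chromosomes and carry the same 7 letters, in capitals. The second Creb5 stretch is chr6:53573318-53573347 on the plus strand, that of Lrrc15 is chr16:30283289-30283318 on the minus strand, and that of Hmgcll1 is chr9:76014780-76014809 on the plus strand.
Creb5, second start: tgggaaggataTGACTCActcaagctagtt
Lrrc15: gccccgtgcggTGACTCAcgaggggctgtt
Hmgcll1: gcctagagctcTGACTCAggcgagcacctg
These matches began 45, 53 and 186 bases before the start, in the order shown. The second RefSeq start of Creb5 lies 286104 bases inside the gene as GENCODE M21 draws it. That of Lrrc15 lies 2 bases inside and that of Hmgcll1 122 bases inside. Which start is used in these cells was not tested. The GC box GGGCGG was in the windows of 4 members (Creb5, Lrrc15, Mcam and Nes) and in 35.7% of all windows. The TEAD motif GGAATG was in the second Creb5 window and in 14.7% of all windows, CCAAT was in that of Cd53 and in 37.4%, CACGTG was in that of Creb5 and in 7.15%, and TATAAA was in no member window and in 13.6% of all. The first Creb5 window held 31 CG dinucleotides, that of Mcam 29, Hmgcll1 19, Nes 18 and Lrrc15 16, while those of Cd53 and the second Creb5 start held 4 each. The median over all windows was 7, with quartiles of 3 and 20. A match describes the letters of the window only, and binding of any factor was not measured.

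**Figure D1:**
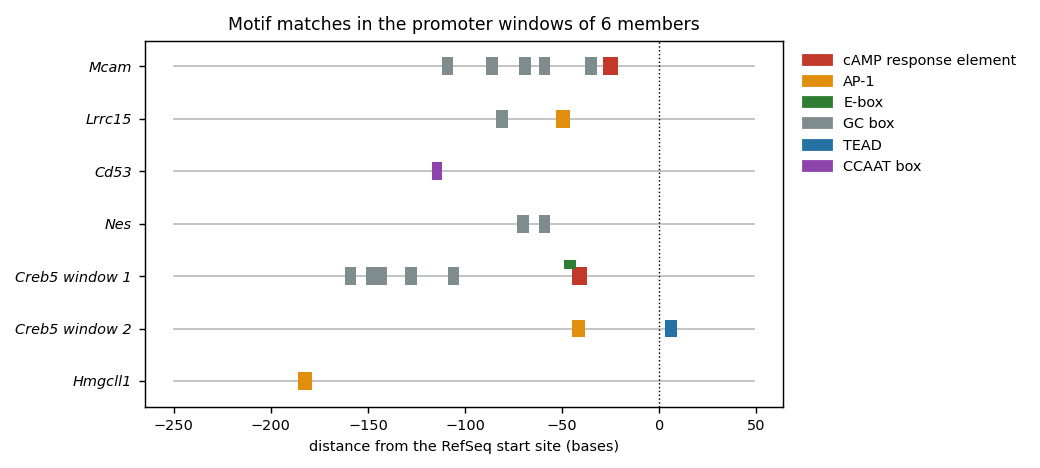
Motif matches in the 7 RefSeq promoter windows of 6 members. The horizontal axis is the distance in bases from the annotated start, each grey line is a window, and coloured blocks are matches on either strand. The cAMP response element appears in Mcam and at the first Creb5 start, and the AP-1 motif in 3 windows.

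Across the 10 genes, the ratio of Kdm5c siRNA to scramble cells grew over the 3 days. The median log2 fold change of the members was 0.34 on day −2, 0.99 on day −1 and 1.33 on day 0, where the median over all 12016 genes was 0.00 on each day. Every Kdm5c siRNA library exceeded every scramble library in 6 of the 10 genes on day −2, in all 10 on day −1 and in all 10 on day 0. That happened in 7.37%, 11.2% and 11% of all genes on the same days, and since the comparison chose the members nothing is read from the contrast with these shares. Lrrc15, Ntrk3, Cd53 and Creb5 were the 4 whose libraries overlapped at 24 h. The log2 fold change was larger on each later day in 9 of the 10 genes. Creb5 was the exception, with its largest value on day −1. For Hmgcll1 the last step was small beside the SE (1.4 ± 0.12 on day −1 and 1.55 ± 0.17 on day 0), and its direction depended on the method of fitting. On the scale of CPM the picture was less uniform, because the difference in level between Kdm5c siRNA and scramble cells was larger on each later day in only 5 of the 10 (Lsp1, Lrrc15, Ntrk3, Cd53 and Glipr1). For Ctsw and Hmgcll1 the difference in CPM was smaller at 72 h than at 24 h. In bulk samples such as these, a change in the number of cells of a type and a change in RNA per cell cannot be told apart.

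**Figure D2:**
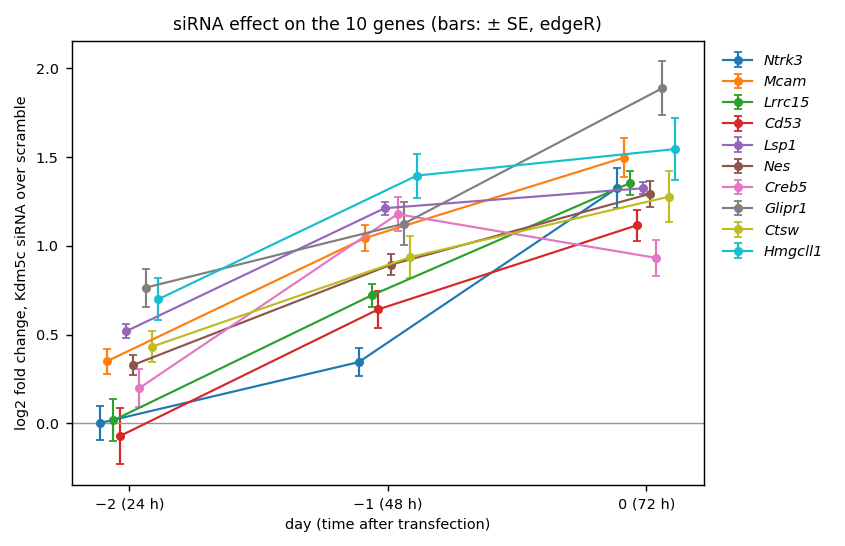
Log2 fold change of Kdm5c siRNA over scramble cells for the 10 genes on days −2, −1 and 0 (24, 48 and 72 h after transfection), with bars of ± 1 SE from the edgeR model, 5 libraries per group. All 10 lie above 0 on days −1 and 0, between 0.93 and 1.89 on day 0, and Creb5 alone is lower on day 0 than on day −1.

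**Figure D3:**
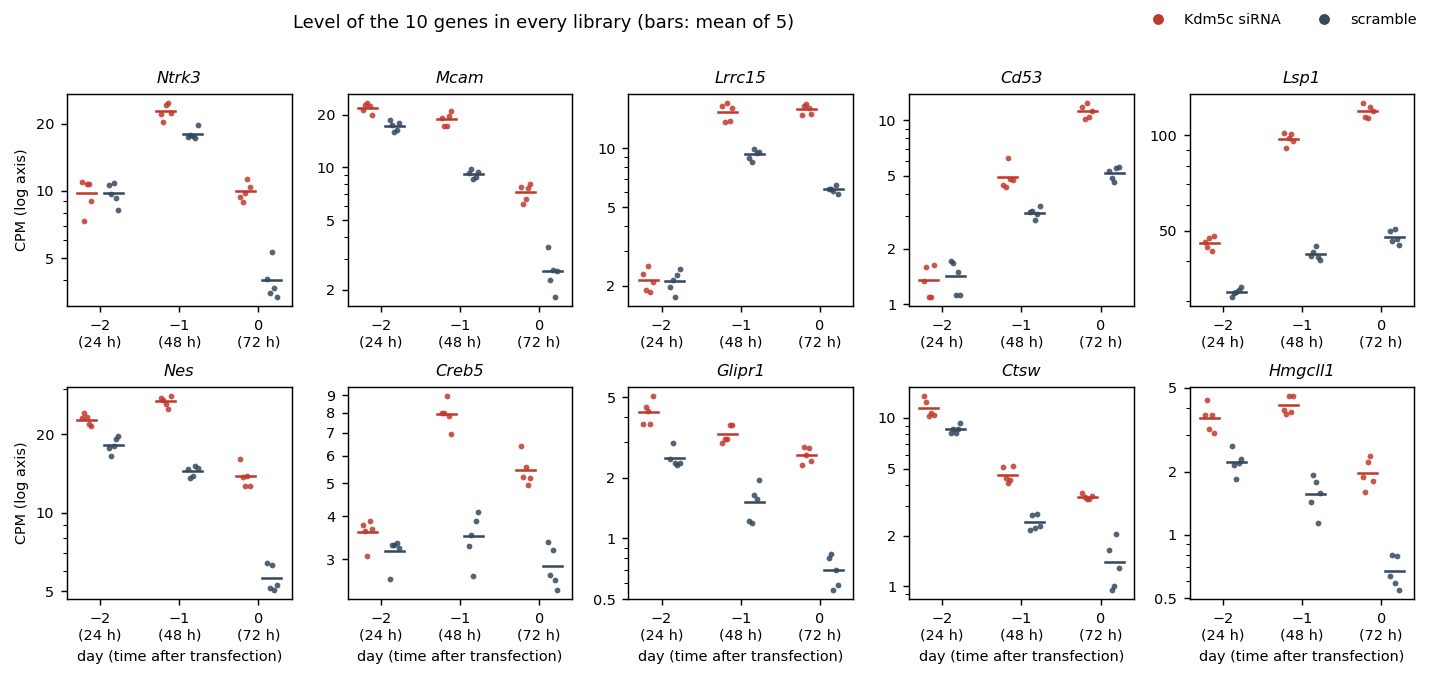
Level of the 10 genes in each of the 30 libraries, in CPM on a log axis, by day (24, 48 and 72 h after transfection). Each point is a library, each bar the mean of 5, with Kdm5c siRNA in red left of scramble in dark blue. The groups are separate in all 10 genes on days −1 and 0, and Lsp1, Lrrc15 and Cd53 are higher on day 0 than on day −2 in both groups, whereas Mcam, Nes, Glipr1, Ctsw and Hmgcll1 are lower.

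Ntrk3 (chr7:78175959-78738012, minus strand, GRCm38) encodes TrkC, the receptor tyrosine kinase for neurotrophin-3. On day −2 its level was 10.9, 7.32, 10.7, 10.7 and 9.05 CPM in the 5 Kdm5c siRNA libraries, against 10.7, 9.66, 10.9, 9.27 and 8.2 CPM in the scramble libraries. On day −1 it was 22, 20.3, 24.2, 24.7 and 22.3 CPM in Kdm5c siRNA libraries, against 17.3, 17.7, 17.6, 17.2 and 19.7 CPM in scramble libraries. On day 0 it was 9.42, 8.94, 9.77, 11.3 and 10.4 CPM in Kdm5c siRNA libraries, against 4.04, 3.5, 5.3, 3.68 and 3.36 CPM in scramble libraries. The 2 groups were interleaved at 24 h, separated narrowly at 48 h when both were at their highest, and were far apart at 72 h. The log2 ratios were 0.00 ± 0.10, 0.35 ± 0.08 and 1.33 ± 0.11, the smallest of the 10 genes at 48 h. In scramble cells Ntrk3 was lower on day 0 than on day −1 (−2.14 ± 0.10 log2, adjusted p = 4.66e-19), after a rise of 0.80 ± 0.09 between day −2 and day −1 (adjusted p = 4.6e-10). Kdm5c siRNA cells followed the same course with a smaller drop: day −1 against day −2 gave 1.15 ± 0.09 log2 and day 0 against day −1 gave −1.15 ± 0.09. Between day 0 and day −2 they differed by −0.01 ± 0.10 and their libraries overlapped, whereas in scramble cells that difference was −1.33 ± 0.11 (adjusted p = 3.25e-13). An antisense gene that overlaps Ntrk3, Gm9885, averaged 0.459 CPM over the 30 libraries.

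Other genes of neurotrophin signalling differed by small amounts between the siRNAs. Of 14 tested, 7 were higher and 1 was lower in Kdm5c siRNA cells on day 0, where 19.3% of all genes were called higher and 16.2% lower at an adjusted p under 0.05 (edgeR quasi-likelihood test, Benjamini-Hochberg over 12016 genes); their median log2 fold change was 0.09. Sorcs2, a sortilin-family receptor that binds proneurotrophins, averaged 73.4 ± 2.52 CPM against 60.3 ± 4.53 CPM in scramble cells on day 0 (0.29 ± 0.04, adjusted p = 2.52e-07). Shc1, an adaptor of receptor tyrosine kinases, was higher by 0.16 ± 0.02 (adjusted p = 1.97e-06), and Maged1, which binds the p75 neurotrophin receptor, by 0.11 ± 0.02 (adjusted p = 5.95e-05). The docking protein Frs2 went the other way and was lower on all 3 days (log2 fold changes −0.45 ± 0.03, −0.40 ± 0.03 and −0.29 ± 0.03, adjusted p = 1.95e-13, 1.9e-12 and 2.61e-09).

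Mcam (chr9:44134469-44142727, plus strand) encodes CD146, an adhesion molecule of the immunoglobulin superfamily found on endothelial cells and pericytes. On day 0 its level was 7.72, 6.15, 6.55, 7.62 and 8.01 CPM in Kdm5c siRNA libraries, against 3.51, 2.29, 2.59, 1.82 and 2.56 CPM in scramble libraries. The highest scramble library was well below the lowest Kdm5c siRNA library. Levels were far higher earlier, at 21.9 ± 1.3 CPM in Kdm5c siRNA and 17.2 ± 1.09 CPM in scramble cells on day −2, and 18.9 ± 1.58 CPM in Kdm5c siRNA and 9.18 ± 0.471 CPM in scramble cells on day −1 (SD, n = 5). Between the siRNAs the log2 fold changes were 0.35 ± 0.07, 1.04 ± 0.08 and 1.5 ± 0.11, while the difference in CPM was 4.65, 9.7 and 4.66 on the same days. Mcam was lower on day 0 than on day −2 in both groups: scramble cells had a level on day 0 that was 6.91-fold lower than on day −2 (−2.79 ± 0.10 log2, adjusted p = 4.35e-24), and Kdm5c siRNA cells differed by −1.64 ± 0.08 log2.

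Among 12 further adhesion molecules of the immunoglobulin superfamily that were tested, 6 were higher and 0 lower in Kdm5c siRNA cells on day 0. Their median log2 fold change was 0.08, and 19.3% of all genes were called higher and 16.2% lower on that day. On day −1, 7 were higher and 0 lower, where 18.8% and 16.8% of all genes were called, and on day −2, 4 were higher and 1 lower, where 11.3% and 11.9% were called. Cadm4, an adhesion molecule of the SynCAM family, averaged 12.7 ± 0.723 CPM against 8.55 ± 0.785 CPM in scramble cells on day 0 (0.57 ± 0.05, adjusted p = 2.57e-10). Nectin2, a component of cell junctions, was higher by 0.44 ± 0.03 (adjusted p = 4.83e-12), the related Nectin1 by 0.31 ± 0.07 (adjusted p = 0.000438) and the fibroblast glycoprotein Thy1 by 0.27 ± 0.03 (adjusted p = 1.04e-07). Mcam and Nes also mark pericytes. Of 12 other pericyte and smooth muscle genes, 5 were higher and 4 lower on day 0, against the same 19.3% and 16.2% of all genes. Their median log2 fold change was 0.11. Tagln, an actin-binding protein of smooth muscle, averaged 34.4 ± 2.26 CPM against 17.4 ± 1.84 CPM in scramble cells (0.98 ± 0.07, adjusted p = 5.04e-13). Acta2, smooth muscle actin, averaged 702 ± 23.8 CPM against 527 ± 25.5 CPM in scramble cells (0.42 ± 0.04, adjusted p = 2.36e-11), and the receptor Notch3 was higher by 0.43 ± 0.06 (adjusted p = 1.42e-06). Mylk, myosin light chain kinase, was lower (−0.47 ± 0.08, adjusted p = 2.14e-05). Like Mcam, Tagln and Acta2 were at much lower levels on day 0 than on day −2 in both groups. On day −2 Tagln averaged 211 ± 2.29 CPM against 181 ± 9.13 CPM in scramble cells, and Acta2 averaged 2798 ± 39.3 CPM against 2499.8 ± 97.3 CPM in scramble cells. Notch3, Mylk and most other genes of this list instead had higher means on day 0 than on day −2 in both groups. Notch3 averaged 2.29 CPM in Kdm5c siRNA and 2.01 CPM in scramble cells on day −2, and 34.6 and 25.7 CPM on day 0. Mylk averaged 11.9 and 12.4 CPM on day −2, and 64.8 and 89.9 CPM on day 0.

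Because Mcam is also an endothelial gene, endothelial markers were examined beside it. Of 12 such markers 3 were in the count table, and their summed level, almost all from the VEGF receptor Flt1, was 101 to 113 CPM in Kdm5c siRNA libraries and 66.2 to 70.3 CPM in scramble libraries on day 0. Flt1 averaged 99.5 CPM in Kdm5c siRNA and 62.5 CPM in scramble cells on day 0. The other 2 were lower in level: Vwf averaged 4.43 CPM in Kdm5c siRNA and 3.27 CPM in scramble cells, and Kdr 1.61 and 1.22 CPM. Of the markers outside the count table, Pecam1 and Cdh5 reached at most 0.636 and 0.258 CPM in any library, and Sox17 was at 0 in all 30.

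Lrrc15 (chr16:30269302-30283256, minus strand) encodes a membrane protein with leucine-rich repeats that marks activated fibroblasts. On day −2 its level was 2.3, 1.9, 2.51, 1.85 and 2.09 CPM in Kdm5c siRNA libraries, against 1.97, 2.13, 1.75, 2.27 and 2.43 CPM in scramble libraries. On day −1 it was 16.5, 13.5, 17, 13.8 and 16 CPM in Kdm5c siRNA libraries, against 8.9, 8.55, 9.95, 9.48 and 9.62 CPM in scramble libraries. On day 0 it was 14.8, 16.4, 16.8, 16 and 14.9 CPM in Kdm5c siRNA libraries, against 6.21, 6.17, 6.04, 6.53 and 5.88 CPM in scramble libraries. The groups were interleaved at 24 h and no library overlapped on the later days. Lrrc15 began low, was several-fold higher by day −1 in both groups, and then stayed level in Kdm5c siRNA cells (0.08 ± 0.06 log2, day 0 against day −1) where scramble cells fell (−0.56 ± 0.07, adjusted p = 3.78e-08). The log2 fold changes between siRNAs were 0.02 ± 0.12, 0.72 ± 0.07 and 1.35 ± 0.07.

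The leucine-rich repeat and activated-fibroblast genes related to Lrrc15 were called in both directions on day 0. So were all genes, of which 19.3% were called higher and 16.2% lower. Of 11 other genes of leucine-rich repeat proteins, 3 were higher and 4 lower on day 0, with a median log2 fold change of −0.06. The adhesion and axon guidance protein Flrt2 was higher by 0.38 ± 0.04 (adjusted p = 5.09e-09), while Lrrc17 averaged 66.7 ± 6.34 CPM against 95.7 ± 11 CPM in scramble cells (−0.52 ± 0.07, adjusted p = 7.07e-07). Lrig3 was lower (−0.32 ± 0.04, adjusted p = 3.62e-08) and the anion channel subunit Lrrc8a (−0.31 ± 0.05, adjusted p = 1.84e-06). Of 17 other genes of activated fibroblasts, 6 were higher and 3 lower, with a median of 0.08. The metalloproteinase Adam12 was higher by 0.47 ± 0.05 (adjusted p = 2.11e-08), and the BMP antagonist Grem1 averaged 1604 ± 89.4 CPM against 1262 ± 58.9 CPM in scramble cells (0.35 ± 0.04, adjusted p = 8.03e-09). The fibrillar collagen gene Col11a1 averaged 58.2 ± 6.45 CPM against 83.9 ± 9.62 CPM in scramble cells (−0.53 ± 0.07, adjusted p = 1.11e-07), and the matrix protein gene Postn was lower (−0.26 ± 0.05, adjusted p = 6.27e-05).

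Cd53 (chr3:106759921-106790149, minus strand) encodes a tetraspanin known mainly from leukocytes. On day 0 its level was 11.9, 10.1, 12.4, 10.5 and 11.2 CPM in Kdm5c siRNA libraries, against 5.27, 4.84, 4.63, 5.54 and 5.59 CPM in scramble libraries. No library overlapped. On day −2 the groups overlapped fully, at 1.1 to 1.63 CPM in Kdm5c siRNA and 1.12 to 1.71 CPM in scramble libraries, which rest on 29 to 52 reads each. On day −1 the means were 4.91 ± 0.775 CPM in Kdm5c siRNA and 3.15 ± 0.206 CPM in scramble cells, and the ranges were separate. The log2 fold changes were −0.07 ± 0.16, 0.64 ± 0.11 and 1.12 ± 0.09. Cd53 rose over time in scramble cells (1.82 ± 0.12, day 0 against day −2, adjusted p = 1.1e-15), and in Kdm5c siRNA cells day 0 was 8.04-fold above day −2, the largest such ratio among the 10 genes. Of 15 other tetraspanins tested, 3 were higher and 2 lower on day 0, against 19.3% and 16.2% of all genes, with a median of 0.01. On day −2, 1 was higher and 7 were lower, against 11.3% and 11.9%. Cd151, which associates with integrins, was higher by 0.34 ± 0.03, 0.44 ± 0.03 and 0.33 ± 0.04 on the 3 days (adjusted p = 1.19e-09, 2.76e-12 and 6.31e-09), and Tspan11 was higher on day 0 by 0.14 ± 0.04 (adjusted p = 0.0147). Cd82 was lower on the 3 days (log2 fold changes −0.28 ± 0.06, −0.43 ± 0.04 and −0.21 ± 0.04, adjusted p = 0.000344, 2.44e-10 and 5.24e-05), and Tspan9 was lower on day 0 (−0.11 ± 0.03, adjusted p = 0.00114).

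Lsp1 (chr7:142460809-142494867, plus strand) encodes an F-actin-binding protein first known from lymphocytes, and it had by far the highest level of the 10 genes. On day −2 its level was 45.9, 44.4, 47.4, 43.1 and 48.1 CPM in Kdm5c siRNA libraries, against 30.9, 31.7, 31.9, 32.5 and 33.1 CPM in scramble libraries. On day −1 it was 101, 91.5, 98.2, 101 and 96 CPM in Kdm5c siRNA libraries, against 41.6, 42.8, 44.7, 41.3 and 40.4 CPM in scramble libraries. On day 0 it was 126, 114, 113, 123 and 119 CPM in Kdm5c siRNA libraries, against 49.7, 46.4, 50.5, 47 and 44.9 CPM in scramble libraries. The groups were apart on all 3 days, and by day −1 the ratio of means had reached 2.32. Expressed as log2 fold changes, the differences were 0.52 ± 0.04, 1.21 ± 0.04 and 1.32 ± 0.03, with the smallest standard errors of the 10 genes, and most of the gain in ratio fell between day −2 and day −1. Scramble cells rose by 0.54 ± 0.04 log2 from day −2 to day 0 (adjusted p = 6.78e-15), and Kdm5c siRNA cells differed by 1.34 ± 0.04. Of 5 other genes of actin binding or actin regulation abundant in leukocytes, 3 were higher and 0 lower on day 0. Among all genes the shares were 19.3% and 16.2%. Their median was 0.06. Capg, an actin-capping protein, averaged 188 ± 5.92 CPM against 148 ± 6.84 CPM in scramble cells (0.34 ± 0.03, adjusted p = 5.57e-12), the Cdc42 exchange factor Fgd3 was higher by 0.35 ± 0.06 (adjusted p = 4.71e-05), and Arhgdib, a GDP-dissociation inhibitor of blood cells, by 0.06 ± 0.02 (adjusted p = 0.0311), a call that 6 of 41 alternative settings did not keep.

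Lsp1, Cd53 and Ctsw are best known from blood cells, so leukocyte markers were examined beside them. Of 18 such markers, 2 averaged 1 CPM or more in any group, Csf1r and Cd68. The pan-leukocyte gene Ptprc was at 0 in 23 of the 30 libraries and reached at most 0.0985 CPM, and Cd4, Cd8a and Adgre1 were at 0 in all 30. The sum over the 18 markers on day 0 was 4.36 to 6.01 CPM in Kdm5c siRNA libraries and 2.94 to 3.85 CPM in scramble libraries, and Cd68, a lysosomal membrane gene, averaged 3.256 CPM in Kdm5c siRNA and 1.74 CPM in scramble cells. On day −2 the sums overlapped, at 6.64 to 9.53 CPM in Kdm5c siRNA and 5.53 to 8.04 CPM in scramble libraries.

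Nes (chr3:87971078-87980451, plus strand) encodes nestin, an intermediate filament protein of neural progenitors and other immature cells. On day 0 its level was 16.1, 13.7, 12.7, 13.8 and 12.7 CPM in Kdm5c siRNA libraries, against 6.44, 5.14, 6.3, 5.08 and 5.3 CPM in scramble libraries. Every knockdown library was well above the highest scramble library. Earlier means were 22.8 ± 1.11 CPM in Kdm5c siRNA and 18.2 ± 1.27 CPM in scramble cells on day −2, and 26.8 ± 1.17 CPM in Kdm5c siRNA and 14.4 ± 0.672 CPM in scramble cells on day −1. The log2 ratios were 0.33 ± 0.06, 0.89 ± 0.06 and 1.29 ± 0.07. Nes was lower on day 0 than on day −2 in scramble cells (−1.73 ± 0.07, adjusted p = 3.81e-22), and differed by −0.76 ± 0.06 in Kdm5c siRNA cells, in which it first reached its highest level on day −1. Of 7 other intermediate filament genes, 0 were higher and 1 lower on day 0, against 19.3% and 16.2% of all genes, with a median of −0.02. The one that was lower, Synm, whose product co-assembles with other intermediate filaments, averaged 21.7 ± 1.68 CPM against 31.8 ± 2.49 CPM in scramble cells (−0.55 ± 0.08, adjusted p = 8.21e-07). Of 12 neural and glial markers, 4 were in the count table, and their summed level on day 0 was 24.6 to 28 CPM in Kdm5c siRNA libraries and 27.4 to 34.4 CPM in scramble libraries, most of it from Map2, while Dcx, Sox10 and Olig2 were at 0 in all 30.

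Creb5 (chr6:53287270-53700376, plus strand), the one transcription factor of the 10, encodes a basic leucine-zipper protein that binds cAMP response elements. On day −2 its level was 3.77, 3.63, 3.08, 3.88 and 3.69 CPM in Kdm5c siRNA libraries, against 2.63, 3.31, 3.31, 3.34 and 3.24 CPM in scramble libraries. On day −1 it was 8.01, 8.01, 8.94, 7.82 and 6.94 CPM in Kdm5c siRNA libraries, against 3.29, 3.54, 2.69, 3.88 and 4.12 CPM in scramble libraries. On day 0 it was 6.42, 5.2, 5.56, 4.94 and 5.18 CPM in Kdm5c siRNA libraries, against 3.37, 2.7, 3.19, 2.62 and 2.45 CPM in scramble libraries. The groups overlapped at 24 h, and at 48 and 72 h every knockdown library was above every scramble library, with the widest gap at 48 h. Between the siRNAs the log2 fold changes were 0.20 ± 0.11, 1.18 ± 0.09 and 0.93 ± 0.10. Scramble cells kept a nearly constant level: day 0 against day −2 gave −0.18 ± 0.11 (adjusted p = 0.137) and day −1 against day −2 gave 0.08 ± 0.11 (adjusted p = 0.528), neither of which passed the test. Day 0 against day −1 gave −0.25 ± 0.11 (adjusted p = 0.0402), and this call was lost in 9 of 41 alternative settings, with adjusted p up to 0.140.

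The relatives of Creb5 showed smaller differences, in both directions. Of 18 other CREB and ATF factors and coactivators, 3 were higher and 3 lower on day 0, with a median log2 fold change of −0.06. Among all genes 19.3% were called higher and 16.2% lower, so these counts were near the background. The endoplasmic reticulum stress sensor Atf6 was higher by 0.15 ± 0.03 (adjusted p = 4.41e-05). Atf5 averaged 498 ± 21.9 CPM against 579 ± 32.7 CPM in scramble cells (−0.21 ± 0.03, adjusted p = 4.55e-06), the amino acid response factor Atf4 was lower (−0.14 ± 0.03, adjusted p = 0.000641), and the coactivator Crebbp (−0.12 ± 0.02, adjusted p = 0.00011).

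Glipr1 (chr10:111985448-112002631, minus strand) encodes a glycoprotein of the CAP superfamily, and it had the largest ratio of the 10 genes on day 0. Its level there was 2.31, 2.83, 2.59, 2.79 and 2.43 CPM in Kdm5c siRNA libraries, against 0.801, 0.838, 0.556, 0.697 and 0.584 CPM in scramble libraries. The scramble values rest on 15 to 24 reads per library and the knockdown values on 67 to 80. Means were 4.24 ± 0.577 CPM in Kdm5c siRNA and 2.49 ± 0.278 CPM in scramble cells on day −2, and 3.29 ± 0.33 CPM in Kdm5c siRNA and 1.51 ± 0.314 CPM in scramble cells on day −1, and the groups were separate on each day. The log2 fold changes were 0.76 ± 0.11, 1.13 ± 0.12 and 1.89 ± 0.15, a fold of 3.7 on day 0. Glipr1 was lower on day 0 than on day −2 in scramble cells (−1.87 ± 0.15, adjusted p = 2.04e-13) and differed by −0.75 ± 0.11 in Kdm5c siRNA cells. Its 3' end overlaps Krr1 on the opposite strand, which averaged 33.4 CPM over the 30 libraries and did not pass the test on day 0 (0.06 ± 0.03, adjusted p = 0.14). The libraries were strand-specific, but the strand setting of the counter is not given in the sources used here, so reads of the overlap cannot be assigned with certainty. Of 3 other CAP superfamily genes tested, 1 was higher, Glipr2, which averaged 121 ± 1.28 CPM against 109.8 ± 2.86 CPM in scramble cells on day 0 (0.14 ± 0.02, adjusted p = 1.69e-06), and 0 were lower. On that day 19.3% of all genes were called higher and 16.2% lower.

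Ctsw (chr19:5465043-5468507, minus strand) encodes cathepsin W, a papain-family cysteine protease of cytotoxic lymphocytes. On day 0 its level was 3.58, 3.39, 3.29, 3.29 and 3.44 CPM in Kdm5c siRNA libraries, against 1.64, 0.952, 1.0, 2.06 and 1.28 CPM in scramble libraries. The knockdown libraries were tightly grouped and above all scramble libraries, which were more widely spread. Means were 11.5 ± 1.42 CPM in Kdm5c siRNA and 8.54 ± 0.487 CPM in scramble cells on day −2, and 4.6 ± 0.487 CPM in Kdm5c siRNA and 2.4 ± 0.254 CPM in scramble cells on day −1. Expressed as log2 fold changes, the differences were 0.43 ± 0.09, 0.94 ± 0.12 and 1.28 ± 0.14, while the difference in CPM was 2.92, 2.2 and 2.02. Ctsw fell over time in scramble cells (−2.64 ± 0.12, day 0 against day −2, adjusted p = 2.44e-20) and differed by −1.79 ± 0.10 in Kdm5c siRNA cells, so the growing ratio accompanied a lower level on day 0 in both groups. Its 3' end overlaps Fibp on the opposite strand, which averaged 30.2 CPM and did not pass the test on day 0 (−0.05 ± 0.04, adjusted p = 0.437). Of 9 other cysteine cathepsins and cystatins, 3 were higher and 1 lower on day 0, against 19.3% and 16.2% of all genes. Their median was −0.01. Ctsc, which activates granule proteases, averaged 5.54 ± 0.31 CPM against 4.32 ± 0.502 CPM in scramble cells (0.36 ± 0.09, adjusted p = 0.00179), Ctsb was higher by 0.09 ± 0.03 (adjusted p = 0.00508) and Ctsz by 0.07 ± 0.03 (adjusted p = 0.03), the last a call that 6 of 41 alternative settings did not keep. The cathepsin inhibitor Cst3 was lower (−0.19 ± 0.03, adjusted p = 1.41e-05).

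Hmgcll1 (chr9:76014855-76136350, plus strand) encodes an HMG-CoA lyase that works outside mitochondria. On day 0 its level was 1.89, 1.59, 2.23, 2.36 and 1.81 CPM in Kdm5c siRNA libraries, against 0.634, 0.80, 0.593, 0.796 and 0.548 CPM in scramble libraries. No library overlapped, and the scramble values rest on 15 to 24 reads. Means were 3.6 ± 0.524 CPM in Kdm5c siRNA and 2.23 ± 0.29 CPM in scramble cells on day −2, and 4.13 ± 0.396 CPM in Kdm5c siRNA and 1.57 ± 0.308 CPM in scramble cells on day −1. The log2 ratios were 0.70 ± 0.12, 1.4 ± 0.12 and 1.55 ± 0.17. Hmgcll1 was lower on day 0 than on day −2 in scramble cells (−1.76 ± 0.17, adjusted p = 9.07e-12) and differed by −0.91 ± 0.12 in Kdm5c siRNA cells. Of 11 other genes of HMG-CoA and ketone body metabolism tested, 1 was higher, 5 lower and 5 not called on day 0. Among all genes 19.3% were called higher and 16.2% lower on that day. On day −1, 0 were higher, 7 lower and 4 not called, against 18.8% and 16.8% of all genes, and the medians were −0.09 on day 0 and −0.15 on day −1. Oxct1, the enzyme that commits ketone bodies to oxidation, averaged 254 ± 8.68 CPM against 317 ± 11.3 CPM in scramble cells on day 0 (−0.32 ± 0.03, adjusted p = 1.29e-09). The thiolase Acat1 was lower (−0.21 ± 0.02, adjusted p = 5.15e-09), and Auh was higher by 0.21 ± 0.05 (adjusted p = 0.000815).

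Over the 12 lists together, 133 non-member genes were tested. On day 0, 41 were higher and 24 lower in Kdm5c siRNA cells, where 19.3% and 16.2% of all genes were called. On day −1, 38 were higher and 31 lower, against 18.8% and 16.8%, and on day −2, 28 were higher and 25 lower, against 11.3% and 11.9%. Their median log2 fold change was 0.02, 0.01 and 0.02 on days −2, −1 and 0, against 0.00 over all genes. The siRNA effect itself changed between day −2 and day 0 upward in 30 of them and downward in 15, where 9.95% of all genes were called upward and 6.18% downward. For the 10 members the same change was 0.73 to 1.34 log2, with a median of 1.04.

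**Figure D4:**
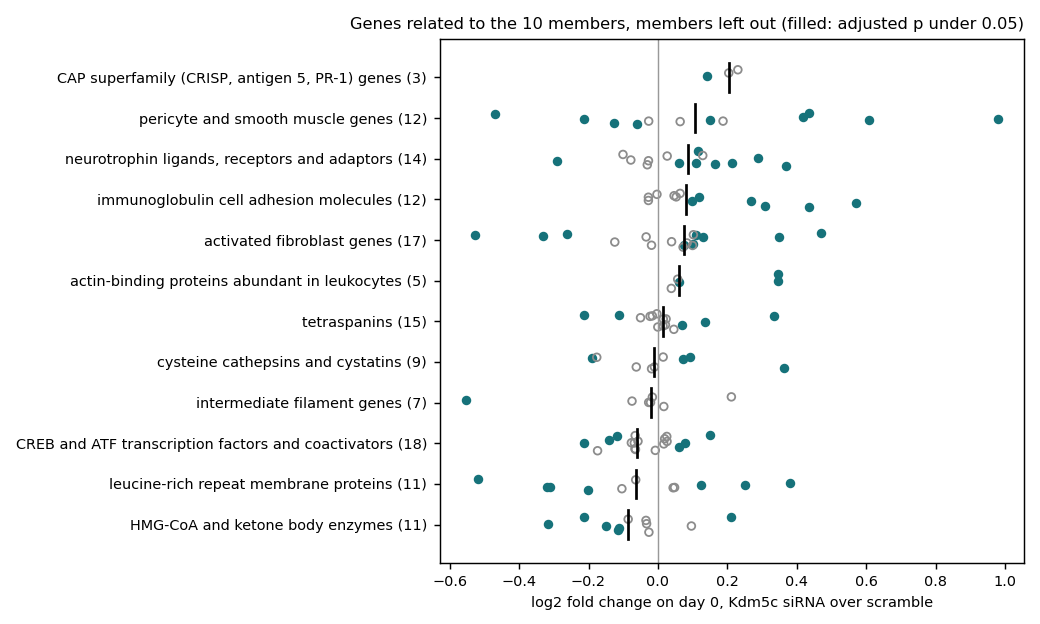
Log2 fold change of Kdm5c siRNA over scramble cells on day 0 for the genes related to the 10 members, with the members left out. Each dot is a gene, filled where the adjusted p is under 0.05 (edgeR), the black bar is the median, and the number tested stands in brackets. The medians lie between −0.09 and 0.20, and Tagln is the gene farthest to the right, at 0.98.

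In scramble cells, the members followed no common course. Between day −2 and day 0, 3 were called higher (Lsp1, Lrrc15 and Cd53), 6 lower (Ntrk3, Mcam, Nes, Glipr1, Ctsw and Hmgcll1) and 1, Creb5, was not called; 44.6% of all genes were called higher and 43.6% lower over the same days, so the number of calls was near the background. Lrrc15 was higher by 1.51 ± 0.10 (adjusted p = 2.01e-16) and Ntrk3 lower (−1.33 ± 0.11, adjusted p = 3.25e-13). Between day −2 and day −1, 4 members were higher and 5 lower, against 39.5% and 39.4% of all genes. Between day −1 and day 0, 2 were higher and 8 lower, against 36.8% and 37.9%. In Kdm5c siRNA cells, the mean levels of Lsp1, Lrrc15, Cd53 and Creb5 were higher on day 0 than on day −2. Those of Mcam, Nes, Glipr1, Ctsw and Hmgcll1 were lower, and Ntrk3 was nearly the same, at 9.96 and 9.75 CPM. A ratio that grows over time therefore stood for a level that rose in some members and for a level that fell less than in scramble cells in others.

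**Figure D5:**
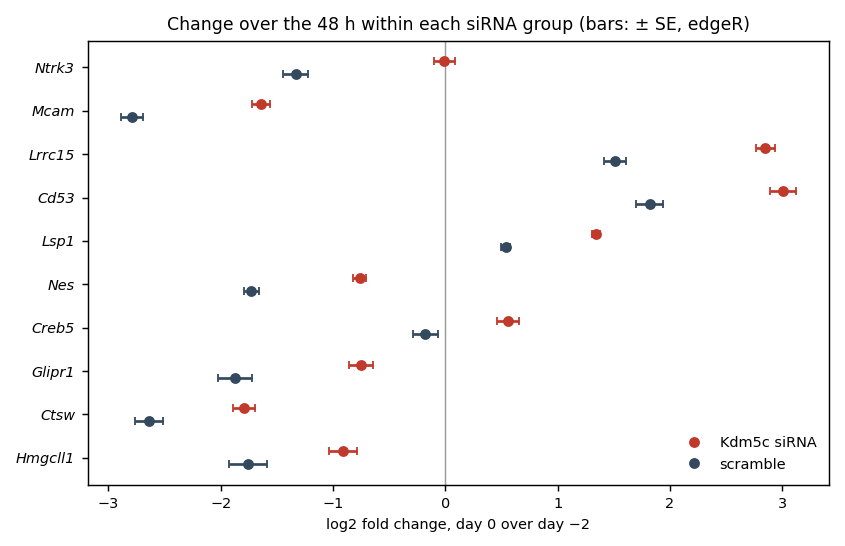
Log2 fold change of day 0 over day −2 for each of the 10 genes, within Kdm5c siRNA cells (red, upper) and within scramble cells (dark blue, lower), with bars of ± 1 SE from the edgeR model. The Kdm5c siRNA point lies right of the scramble point in every gene, which restates the growing ratio, and the genes run from −2.79 for Mcam in scramble cells to 3.01 for Cd53 in Kdm5c siRNA cells.

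Levels can be compared between the genes only per length. Divided by the length of the principal coding transcript, the level in Kdm5c siRNA cells on day 0 was 65.3 CPM per kb for Lsp1, 6.43 for Cd53, 2.97 for Lrrc15, 2.74 for Ctsw, 2.41 for Mcam, 2.25 for Nes, 2.19 for Glipr1, 0.69 for Creb5, 0.529 for Hmgcll1 and 0.506 for Ntrk3. In scramble cells on the same day the order was nearly the same, from 26.1 CPM per kb for Lsp1 and 2.97 for Cd53 down to 0.202 for Ntrk3 and 0.180 for Hmgcll1. Lsp1 and Cd53 stood apart, whereas Nes was within 1 SD of Mcam and of Glipr1 in Kdm5c siRNA cells. Hmgcll1 and Ntrk3 were also within 1 SD of each other. With the length of all annotated exons together, Lsp1, Cd53, Lrrc15 and Glipr1 kept their places in this order and the other 6 changed theirs.

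The members lie on 7 chromosomes, and 38 tested genes lie within 100 kb of one. In this set 11 were higher and 3 lower in Kdm5c siRNA cells on day 0, against 19.3% and 16.2% of all genes. On day −1, 8 were higher and 9 lower (18.8% and 16.8% of all genes), and on day −2, 2 were higher and 4 lower (11.3% and 11.9%). The medians were 0.03, 0.01 and −0.01 on days 0, −1 and −2. H19, the imprinted non-coding RNA that lies 80662 bases from Lsp1, averaged 2.3 CPM against 11.6 CPM in scramble cells on day 0 (−2.33 ± 0.10, adjusted p = 6.13e-19). Syt8, a synaptotagmin gene 20413 bases from Lsp1, was higher by 0.65 ± 0.14, adjusted p = 0.000506. Fosl1, an AP-1 subunit gene 9097 bases from Ctsw, averaged 43.9 CPM against 31.7 CPM in scramble cells (0.47 ± 0.07, adjusted p = 3.97e-06), and Cbl, a ubiquitin ligase gene 249 bases from Mcam, was higher by 0.18 ± 0.03, adjusted p = 3.7e-05. These neighbours were named after their values were seen.

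The genes most like the members in pattern were ranked by the Pearson r of their log2 CPM with the mean standardised profile of the 10 members over the 6 group means. The highest were St5 (r = 0.98), Tmem214 (r = 0.98), Pdgfb (r = 0.97), Mbp (r = 0.97) and Fkbp2 (r = 0.96). This r takes no account of the size of a change. On day 0 the log2 fold change between siRNAs was 0.18 for St5, 0.11 for Tmem214 and 0.15 for Fkbp2. It was 0.82 for Pdgfb and 1.04 for Mbp, and 0.93 to 1.89 for the members. Over the 30 libraries only Pdgfb stayed among the first 5, with r = 0.93. Pdgfb, a growth factor for pericytes and fibroblasts, averaged 9.16 CPM in Kdm5c siRNA and 5.2 CPM in scramble cells on day 0, and Mbp averaged 1.58 CPM in Kdm5c siRNA and 0.771 CPM in scramble cells. The members themselves ranged from r = 0.12 for Cd53 to r = 0.89 for Creb5 against the same profile, since they differ in their course over time.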

How the data were processed

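Strand-specific mRNA libraries of 3T3-L1 cells, 30 in all in 6 groups of 5, were analysed from 2 deposited tables. STAR 2.7.2a and edgeR 3.26.8 are named in the submitters' processing notes, as is the genome build GRCm38, without a role. Neither the counter of reads nor the gene annotation is given in the sources used. The authors deposited CPM for 55573 genes, which were whole reads divided by the library total (100% of nonzero values within 0.05 reads of a whole number). The authors also deposited counts for 12016 genes, the genes that reached 1 CPM in 20 libraries or more; the file names them as normalized, but 100% of the values equalled the reads recovered from the CPM. Between 99.7% and 99.8% of each library's reads were in the count table. Columns were matched to samples by day, siRNA and replicate number. Symbols, coordinates and lengths came from GENCODE M21, and promoter sequence from RefSeq (GRCm38.p6).

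CPM are printed as deposited, with SD over 5 libraries. The tests used edgeR 4.0.16 in R 4.3.3, with TMM scaling, a quasi-likelihood fit of 6 group means to all 30 libraries (24 residual degrees of freedom) and Benjamini-Hochberg adjustment over 12016 genes, two-sided, and a gene was called where its adjusted p was under 0.05. Standard errors (SE) come from the same fit. The common biological coefficient of variation was 0.0367, and filtering on low counts in edgeR left out 0 of these genes. The code was checked on simulated counts.

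The members and the 12 lists of related genes were chosen with earlier results of these data known. Named were the members, Kdm5c, up to 4 called genes per list with the smallest adjusted p on day 0, and the 5 genes most like the members (1 gene so chosen is not reported here); neighbours within 100 kb were added. Protein sequences were not used here. Alternatives were DESeq2 1.42.0, limma 3.58.1 on log2(CPM + 0.1, 0.5 or 2), a stricter filter and none, 3 other scalings, only the libraries of the contrast, a replicate block, and each library left out.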

Additional observations from a re-analysis of the deposited data

Results flagged for a closer look

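Of the 60 gene-by-group sets of 5 libraries (10 members in 6 groups), 4 held a library whose distance to its nearest neighbour took up most of the range of its group (Dixon's 95% limit), and chance alone gives about 1 in 20 groups. These were the highest Ntrk3 value in scramble cells on day −1, 19.7 CPM, the highest Cd53 value in Kdm5c siRNA cells on day −1, 6.26 CPM, the lowest Creb5 value in scramble cells on day −2, 2.63 CPM, and the highest Glipr1 value in scramble cells on day −2, 2.98 CPM.

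Of the 41 related genes picked by the naming rule, 26 had an siRNA effect on day 0 that differed from that on day −2 by the interaction term of the edgeR model at an adjusted p under 0.05; over all genes 9.95% were called upward and 6.18% downward. The 41 were picked for a small adjusted p on day 0, which enters this difference, so nothing is read from their number. The effect on day 0 minus that on day −2 was positive, on the log2 scale, for Tagln by 0.76, Grem1 by 0.40, Cadm4 by 0.36, Nectin1 by 0.35, Sorcs2 by 0.33, Capg by 0.32, Tspan11 by 0.29, Nectin2 by 0.27, Flrt2 by 0.26, Acta2 by 0.25, Auh by 0.25, Thy1 by 0.23, Fgd3 by 0.22, Shc1 by 0.21, Lrig3 by 0.19, Ctsb by 0.17 and Frs2 by 0.16. The difference was negative for Col11a1 (−1.11), Lrrc8a (−0.46), Mylk (−0.41), Postn (−0.33), Atf5 (−0.24), Atf4 (−0.21), Tspan9 (−0.16), Cst3 (−0.16) and Acat1 (−0.11). Col11a1 and Lrrc8a were called lower on day 0 and higher on day −2. Tspan11 and Ctsb were called higher on day 0 (0.14 and 0.09) and lower on day −2 (−0.16, adjusted p = 0.0433, and −0.08, adjusted p = 0.0251). Lrig3 and Frs2 were lower on both days.

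The list and marker genes outside the deposited count table numbered 135. A few list genes among them had every Kdm5c siRNA library above every scramble library on a day. Among the genes of the count table this happened in 7.37%, 11.2% and 11% on days −2, −1 and 0. Genes separated in the other direction are not listed, so nothing is read from the number of genes given here. On day 0 Pi15, a CAP superfamily gene related to Glipr1, averaged 2.83 CPM in Kdm5c siRNA and 1.68 CPM in scramble cells, the adaptor Shc2 averaged 0.80 CPM in Kdm5c siRNA and 0.286 CPM in scramble cells, and the tetraspanin Tspan2 averaged 1.08 CPM in Kdm5c siRNA and 0.684 CPM in scramble cells. Tspan2 also averaged 1.08 CPM in Kdm5c siRNA and 0.617 CPM in scramble cells on day −1. The smooth muscle gene Cnn1 averaged 3.25 CPM in Kdm5c siRNA and 2.52 CPM in scramble cells on day −2, and 1.25 CPM in Kdm5c siRNA and 0.747 CPM in scramble cells on day −1. Elfn1 averaged 1.14 CPM in Kdm5c siRNA and 0.842 CPM in scramble cells on day −2. These differences were not tested.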

How the results depend on the processing

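Of 4080 member values recomputed over 41 alternatives, 4012 stayed within 1 SD or on their side of the threshold, and no called value changed sign. Values near 0 did: Ntrk3 at 24 h in 10 of 41 alternatives (−0.05 to 0.09 log2), Ntrk3 in Kdm5c siRNA cells on day 0 against day −2 in 11 (−0.10 to 0.05), Lrrc15 at 24 h in 4 (−0.05 to 0.07) and Cd53 at 24 h in 1 (to 0.003). Of the 59 that moved, 57 came from limma and 43 of these from a pseudocount of 2 CPM, which shrinks genes of a few CPM: on day 0 it gave Glipr1 0.77 and Hmgcll1 0.57 log2, against 1.89 and 1.55. The number of members lower in scramble cells on day −1 against day −2 was 3 in place of 5 with a CPM of at least 5 in 5 libraries, where Glipr1 and Hmgcll1 are not tested. Genes called higher on day 0 numbered 2321, and 2080 to 2403 with each library left out. The other alternatives gave 1970 to 2349, with 2243 for DESeq2. Of 2952 counts over single lists, 2826 stayed within 1.5 times. The siRNA effect on Hmgcll1 was smaller on day 0 than on day −1 in limma with a pseudocount of 0.5 or 2 CPM. With 0.5 CPM it was 1.17 log2 on day −1 and 1.07 on day 0. With 2 CPM it was 0.78 and 0.57.

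The replicate numbers did not pair the samples: same-numbered libraries correlated at −0.22 to 0.30 over the comparisons, and in each comparison 1 of 5 fitted its own number best. The replicate block gave 2308 genes higher and 1897 lower on day 0, and the Creb5 call of day 0 against day −1 in scramble cells was lost (−0.26, adjusted p = 0.0506). That call was also lost without a filter (adjusted p = 0.0524), with the libraries of the contrast only (adjusted p = 0.0804), and when scramble replicate 2, 4 or 5 of day 0 or of day −1 was left out (adjusted p = 0.0603 to 0.140). On day 0 the calls of Arhgdib and Ctsz were lost with the libraries of the contrast only (adjusted p = 0.0672 and 0.107) and without a filter (adjusted p = 0.182 and 0.180). The Arhgdib call was also lost without Kdm5c siRNA replicate 2 or 3 or scramble replicate 1 or 5 of day 0 (adjusted p = 0.0575 to 0.0845), and the Ctsz call without Kdm5c siRNA replicate 2, 3 or 5 or scramble replicate 1 (adjusted p = 0.0546 to 0.127). Depth limits Glipr1 and Hmgcll1 most, at 15 to 24 reads per scramble library on day 0.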

Other observations

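Over the 30 single libraries, 2 other genes came closer to the mean profile of the members than Pdgfb did. Plxnb1, a receptor for semaphorin 4D, had r = 0.93 and averaged 19 CPM in Kdm5c siRNA and 10.5 CPM in scramble cells on day 0. Ctxn1, which encodes a small neuronal membrane protein, had r = 0.93 and averaged 34.1 CPM in Kdm5c siRNA and 23 CPM in scramble cells. Among the fibroblast markers, the stem cell antigen gene Ly6a averaged 96.6 CPM in Kdm5c siRNA and 62.1 CPM in scramble cells on day 0, while the proteoglycan gene Lum averaged 2.29 CPM in Kdm5c siRNA and 9.68 CPM in scramble cells, and Zfp423, a factor of preadipocyte commitment, averaged 23.2 CPM in Kdm5c siRNA and 33.4 CPM in scramble cells. These genes were chosen after their values were seen.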
